A study of Homo sapiens with 18 samples.

Results

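The MYC network was followed at the mRNA level in HEK-293E cells, an established human embryonic kidney line, through 10 genes found by symbol in a table of 60623 genes: MYC, MYCN, MYCL, MAX, MXI1, MXD1, MXD3, MXD4, MNT and MGA. RNA was sequenced from 18 libraries in 6 groups of 3. With Torin1, which inhibits mTOR kinase, there were starved cells, 1 h fed cells and 4 h fed cells, and the same 3 feeding states were sampled without it. All cells had been starved overnight in medium with little serum, and feeding was a return to regular serum-containing growth medium. The sources used here state neither the dose nor the duration of Torin1. Libraries of a group differ by number only, and separate cultures are not mentioned, so the p-values rest on spread that may be technical. In bulk RNA, fewer cells of a type and less RNA per cell cannot be told apart.

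MYC, MYCN and MYCL are transcription factors that bind DNA only as a pair with MAX, mostly at the E-box, and that activate genes of ribosome production, nucleotide synthesis and cell growth. MXD1, MXI1 (also called MXD2), MXD3, MXD4 and MNT pair with the same MAX at the same sites and recruit the SIN3 corepressor, so they compete with MYC. MGA, the largest member, also pairs with MAX and is the scaffold of a polycomb complex, PRC1.6. In many cells MYC is an early response gene of serum, and its protein is short-lived, so mRNA is only one part of how much MYC a cell holds. Only mRNA was measured here.

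The libraries held between 10510680 and 13690036 counts. Values are CPM (counts scaled to library size) after TMM scaling. Tests are edgeR quasi-likelihood tests on all 18 libraries with Benjamini-Hochberg adjustment over 16414 genes, and a gene was called at an adjusted p under 0.05. All 10 genes passed the filter on low counts, MYCN with only 1 to 15 counts per library. Of 10 markers of HEK293 cells, all were tested and summed to 1430 to 1740 CPM in libraries with Torin1 and 937 to 1180 CPM in libraries without. Of 14 markers of fibroblasts, immune cells, endothelium and red cells, 6 passed the filter, HBB was at 0 in all 18 libraries, and the summed level was 17.1 to 41.3 CPM with Torin1 and 24.7 to 62.6 CPM without. HBA1, the other red cell marker, averaged 1.82 CPM with Torin1 in starved cells and 17.3 CPM without (log2 fold change -3.2, adjusted p = 7.09e-11). The part of all these markers in the results was not tested.

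**Figure D1:**
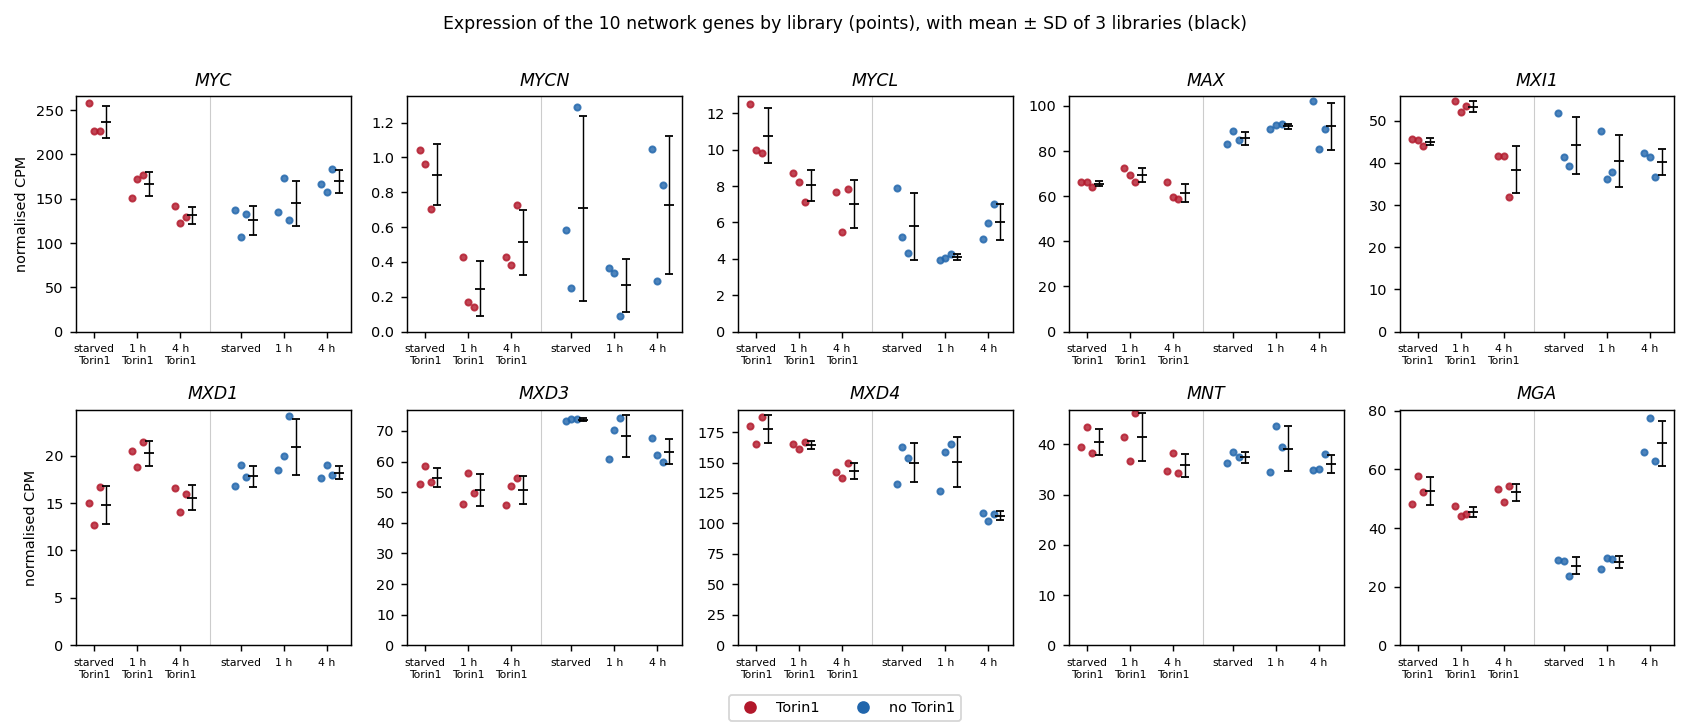
Expression of the 10 genes in normalised CPM (y axis, from 0, one scale per gene) in each library (points), with Torin1 on the left and without on the right; black marks are means and SD of 3 libraries, and "1 h" and "4 h" are hours of feeding. MYC runs downward over feeding with Torin1 and upward without, and MAX and MXD3 (from all of its isoforms) are lower in all 9 libraries with Torin1.

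MYC moved in opposite directions with feeding depending on Torin1. With Torin1, MYC was at 258, 226 and 227 CPM in starved cells, 151, 172 and 177 CPM after 1 h of feeding, and 142, 123 and 129 CPM after 4 h. Without Torin1 the values were 137, 107 and 133 CPM in starved cells, 135, 173 and 126 CPM after 1 h, and 167, 158 and 184 CPM after 4 h. The 3 starved Torin1 libraries were the highest of all 18, and starved and 4 h fed libraries did not overlap in either series. Under Torin1, 4 h of feeding lowered MYC by a log2 fold change of -0.85 (SE 0.11, adjusted p = 9.3e-06), to 0.554 of its starved level. Without Torin1, 4 h of feeding raised it by 0.43 on the log2 scale (SE 0.11, adjusted p = 0.00181), or 1.35-fold. The difference between these feeding effects was -1.29 on the log2 scale (SE 0.15, 95% interval -1.61 to -0.96, adjusted p = 2.29e-07). This opposite movement was known when the network was chosen, so these p-values describe it and are no independent test.

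At 1 h under Torin1 MYC fell by 0.51 on the log2 scale (SE 0.11, adjusted p = 0.0253). That call was lost when any one of the 6 libraries compared was left out, with values of -0.44 to -0.55 and adjusted p between 0.0632 and 0.192 (without starved Torin1 replicates 1, 2 or 3, or 1 h fed Torin1 replicates 1, 2 or 3). Without Torin1, the 1 h value was 0.20 (SE 0.11, adjusted p = 0.582) and not called. The difference of the 1 h effects was -0.71 (SE 0.15, adjusted p = 0.0817). It was not called, though the DESeq2 Wald test called it (-0.70, adjusted p = 0.00825), as did edgeR with no filter on low counts (-0.71, adjusted p = 5.35e-05) and without 1 h fed replicate 1 (-0.76, adjusted p = 0.0436) or replicate 3 (-0.80, adjusted p = 0.0268). At 4 h against 1 h, MYC was at -0.35 under Torin1 (SE 0.11, adjusted p = 0.102), where the groups did not overlap, and 0.23 without (SE 0.11, adjusted p = 0.0863), where they did. The first was called with no filter on low counts (-0.35, adjusted p = 0.0146) and with only the groups compared in the fit (-0.32, adjusted p = 0.01). The second was called without 1 h fed replicate 2 (0.38, adjusted p = 0.00566).

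Read across Torin1 rather than across feeding, MYC was 1.89-fold higher with Torin1 in starved cells (log2 fold change 0.92, SE 0.11, adjusted p = 2.65e-08), and the groups did not overlap. In 1 h fed cells the difference was 0.21 (95% interval -0.02 to 0.44, adjusted p = 0.0912) and the groups overlapped. It was called when 1 h fed replicate 2, at 173 CPM the highest of its group, was left out (0.35, adjusted p = 0.00513), and likewise without 1 h fed Torin1 replicate 1 (0.28, adjusted p = 0.046), with total counts (0.32, adjusted p = 0.017) and with no filter (0.22, adjusted p = 0.0436). In 4 h fed cells MYC fell to 131 ± 9.95 CPM with Torin1, against 170 ± 12.7 CPM without (SD, n = 3 each; log2 fold change -0.37, adjusted p = 0.00447). Scaling by total counts, which moved the median of all genes by 0.17, left -0.21 (adjusted p = 0.12). In the order of group means, starved, 4 h fed Torin1, 1 h fed, 1 h fed Torin1 and 4 h fed each overlapped the next, and starved Torin1 alone stood clear above.

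MYCL, a MYC relative first found in lung cancer, was higher with Torin1 in starved and 1 h fed cells. With Torin1 it had 12.5, 10 and 9.83 CPM in starved cells, against 7.87, 5.18 and 4.32 CPM without, and in 1 h fed cells 8.73, 8.24 and 7.12 CPM, against 3.95, 4.07 and 4.29 CPM. Neither pair of groups overlapped. The log2 fold change was 0.90 in starved cells (SE 0.21, adjusted p = 0.000496) and 0.96 in 1 h fed cells (SE 0.22, adjusted p = 0.000418). In 4 h fed cells it was 0.22 (95% interval -0.25 to 0.70, adjusted p = 0.395). Its 4 h feeding value was -0.62 under Torin1 (adjusted p = 0.133) and 0.06 without (adjusted p = 0.859), and the difference of -0.68 was not called (adjusted p = 0.104) except without starved replicate 1 (-0.96, adjusted p = 0.0226). At 4 h against 1 h without Torin1 MYCL was at 0.55 (SE 0.23, adjusted p = 0.0585), called without starved replicate 1 (0.54, adjusted p = 0.0459) or 4 h fed replicate 1 (0.66, adjusted p = 0.0427). MYCN, the neuronal relative, averaged 0.247 to 0.903 CPM and was called in no comparison; its intervals were wide, -0.98 to 1.71 for Torin1 in starved cells.

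MAX, the shared partner, was lower with Torin1 in every feeding state. Its levels with Torin1 were 66.2, 66.3 and 64.1 CPM in starved cells, 72.7, 69.2 and 66.5 CPM at 1 h and 66.1, 59.6 and 58.9 CPM at 4 h. Without Torin1 they were 83.1, 88.7 and 84.9 CPM, 89.7, 91.4 and 91.8 CPM, and 102, 81 and 89.7 CPM in the same order. The highest of the 9 Torin1 libraries, at 72.7 CPM, lay below the lowest of the 9 others, at 81 CPM. The log2 fold changes with Torin1 were -0.38 starved, -0.39 after 1 h and -0.56 after 4 h (SE 0.09 each; adjusted p = 0.000285, 0.000234 and 2.02e-06). The feeding values of MAX lay between -0.17 and 0.09 on the log2 scale and none was called. MAX lies opposite FNTB, the farnesyltransferase beta subunit. With Torin1, FNTB was higher by 1.22 on the log2 scale in starved cells and by 1.28 in 1 h fed cells. In 4 h fed cells its 0.22 was not called (adjusted p = 0.177). The exons of MAX isoforms share at most 184 bases with another gene, AL139022.1. Whether reads of a neighbouring gene entered the MAX counts was not tested.

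MXD4, a MAX partner that competes with MYC, fell with 4 h of feeding. After 4 h it had 109, 102 and 108 CPM, against 132, 163 and 154 CPM in starved cells and 127, 159 and 165 CPM after 1 h. The 3 libraries lay below every other library in the series. The log2 fold change was -0.50 against starved cells (SE 0.09, adjusted p = 4.42e-05) and -0.50 against 1 h fed cells (adjusted p = 3.98e-05). With Torin1 the 4 h level was 142, 137 and 150 CPM, against 180, 165 and 187 CPM in starved cells with Torin1, a value of -0.31 (SE 0.09, adjusted p = 0.0683) that was not called. Leaving out starved replicate 1 (-0.32, adjusted p = 0.0467), 1 h fed replicate 1 (-0.32, adjusted p = 0.0224) or 1 h fed replicate 3 (-0.32, adjusted p = 0.0449), none of them in the comparison, brought it past the threshold. It was also called with the DESeq2 Wald test (-0.30, adjusted p = 0.0392), with no filter on low counts (-0.32, adjusted p = 0.0315), with the replicate number as a block (-0.31, adjusted p = 0.0405) and with only the groups compared in the fit (-0.31, adjusted p = 0.0115). The difference of the feeding effects, 0.19 (95% interval -0.09 to 0.46), was not called either, so the fall is not shown to differ with Torin1. Torin1 raised MXD4 in 4 h fed cells (log2 fold change 0.43, adjusted p = 0.000165). In 1 h fed cells it was 0.13 (adjusted p = 0.213), called with total counts only (0.24, adjusted p = 0.0127). In starved cells the 0.24 (adjusted p = 0.018) was lost without starved replicate 1 (0.16, adjusted p = 0.155), without starved Torin1 replicate 3 (0.20, adjusted p = 0.0895) and with DESeq2 size factors (0.19, adjusted p = 0.061).

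MNT, the antagonist that most cell types express, did not pass the test in any of the 11 comparisons. It had 39.6, 43.4 and 38.4 CPM with Torin1 in starved cells, against 36.4, 38.6 and 37.5 CPM without, and its 6 group means spanned 35.8 to 41.5 CPM. Its 4 h feeding value was -0.18 under Torin1 (95% interval -0.40 to 0.05) and -0.05 without (95% interval -0.29 to 0.18). Only scaling by total counts called it, higher with Torin1 in starved cells (0.25, adjusted p = 0.0413). Its longest isoform, MNT-201, shares 1065 of 4996 exon bases with an antisense gene, and the sources used here do not say whether reads were counted by strand.

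The promoters of MXD4 and MNT are shown because, of 14 promoter windows of network genes in the RefSeq table, they were the 2 with CACGTG, the E-box that the network itself binds, which reads the same on both strands. Of 35116 windows of the same length, 300 bases that are mostly upstream of a gene start, 7.26% held it. No window was listed for MYC, so its promoter was not searched. Each sequence is from RefSeq GRCh38.p14, 5′ to 3′ along the gene, with the E-box in capitals. MXD4 lies on the minus strand at chr4:2262060-2262359 and MNT on the minus strand at chr17:2401011-2401310, and the E-box starts at position -238 and -193 from the gene start.
MXD4: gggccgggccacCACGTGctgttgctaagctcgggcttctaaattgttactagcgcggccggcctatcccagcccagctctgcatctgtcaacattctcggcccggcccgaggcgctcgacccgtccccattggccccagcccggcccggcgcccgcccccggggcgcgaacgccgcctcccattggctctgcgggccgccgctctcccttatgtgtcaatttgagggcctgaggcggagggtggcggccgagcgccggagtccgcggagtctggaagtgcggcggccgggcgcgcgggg
MNT: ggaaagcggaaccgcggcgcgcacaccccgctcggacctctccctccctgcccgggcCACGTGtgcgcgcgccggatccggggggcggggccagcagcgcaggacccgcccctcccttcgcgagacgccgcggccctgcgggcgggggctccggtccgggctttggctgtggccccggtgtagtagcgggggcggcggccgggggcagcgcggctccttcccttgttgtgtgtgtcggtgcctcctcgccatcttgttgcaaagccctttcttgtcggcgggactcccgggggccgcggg
One gene of the pair fell with 4 h of feeding and the other was called in no comparison. A match is a description of these letters and not a binding site.

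MXI1 was called in 2 comparisons and MXD1 in none. MXI1 had 54.6, 52 and 53.4 CPM in 1 h fed cells with Torin1, against 47.6, 36.1 and 37.8 CPM without, and the groups did not overlap (log2 fold change 0.40, SE 0.12, adjusted p = 0.00401). Under Torin1 it was lower at 4 h, at 41.6, 41.6 and 31.9 CPM, than at 1 h (log2 fold change -0.48, SE 0.12, adjusted p = 0.0307). That call was lost with total counts (-0.42, adjusted p = 0.0813) and when any 1 h fed Torin1 replicate or 4 h fed Torin1 replicate 2 or 3 was left out (-0.36 to -0.54, adjusted p 0.055 to 0.234). A FOXO motif, GTAAACA or its reverse complement TGTTTAC, lay in 2 of 14 network promoter windows and in 3.42% of all windows. Both were among the 3 windows of MXI1 and were not checked for overlap with each other. Any part of this motif in the MXI1 values was not tested. MXD1, induced on differentiation in many lineages, averaged 14.8 to 20.9 CPM over the groups. Its lowest group was starved Torin1, at 15, 12.7 and 16.7 CPM, against 16.8, 19 and 17.7 CPM in starved cells (-0.27, adjusted p = 0.085); it was called there with DESeq2 size factors (-0.32, adjusted p = 0.0437), with the DESeq2 Wald test (-0.32, adjusted p = 0.0421) and without starved Torin1 replicate 3 (-0.36, adjusted p = 0.0439).

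MGA had the largest called change of the network with feeding. Without Torin1 it had 29.1, 28.7 and 23.8 CPM in starved cells, 26.1, 29.9 and 29.6 CPM after 1 h and 66, 77.5 and 63 CPM after 4 h. The starved and 1 h fed libraries overlapped and every 4 h fed library stood above both. The log2 fold change at 4 h was 1.34 against starved cells (SE 0.11, 2.53-fold, adjusted p = 1.4e-11) and 1.27 against 1 h fed cells (SE 0.11, adjusted p = 4.48e-11). With Torin1, MGA had 48.2, 57.8 and 52.2 CPM in starved cells, 47.5, 44 and 44.9 CPM after 1 h and 53.3, 48.8 and 54.4 CPM after 4 h. Those 9 libraries lay between the starved and 4 h fed levels of cells without Torin1.

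Against the matching cells without Torin1, MGA was higher with Torin1 in starved cells (log2 fold change 0.95, SE 0.11, adjusted p = 4.86e-09) and in 1 h fed cells (0.67, SE 0.11, adjusted p = 2.75e-06), and lower in 4 h fed cells (-0.40, SE 0.10, adjusted p = 0.00136). Under Torin1 its 4 h feeding value was -0.02 (95% interval -0.24 to 0.21, adjusted p = 0.976). The difference between the feeding effects with and without Torin1 was -1.35 (SE 0.15, adjusted p = 2.57e-08), next to -1.29 for MYC. MYC passed the feeding test at 4 h both with and without Torin1, and MGA passed it without. Which MGA isoform the reads belonged to was not settled: the share assigned to MGA-211, the isoform with the highest share in 4 h fed cells, ran from 0% to 83.5% among the 3 libraries of 1 h fed cells.

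The promoter at the start of the isoform MGA-201 is shown because the gene had the largest called change with feeding (RefSeq GRCh38.p14, chr15:41660155-41660454, plus strand). It holds neither motif searched, so no letters are in capitals; MGA-211 starts 8483 bases further along, outside this window.
MGA: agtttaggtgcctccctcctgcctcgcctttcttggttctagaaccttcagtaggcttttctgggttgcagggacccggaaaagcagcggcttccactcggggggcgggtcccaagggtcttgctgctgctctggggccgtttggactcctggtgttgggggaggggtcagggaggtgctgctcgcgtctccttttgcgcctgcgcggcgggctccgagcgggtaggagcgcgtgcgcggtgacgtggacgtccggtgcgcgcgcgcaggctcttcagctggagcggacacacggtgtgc
The window, which holds the annotated start of MGA-201, is one of 3 listed for the gene.

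**Figure D2:**
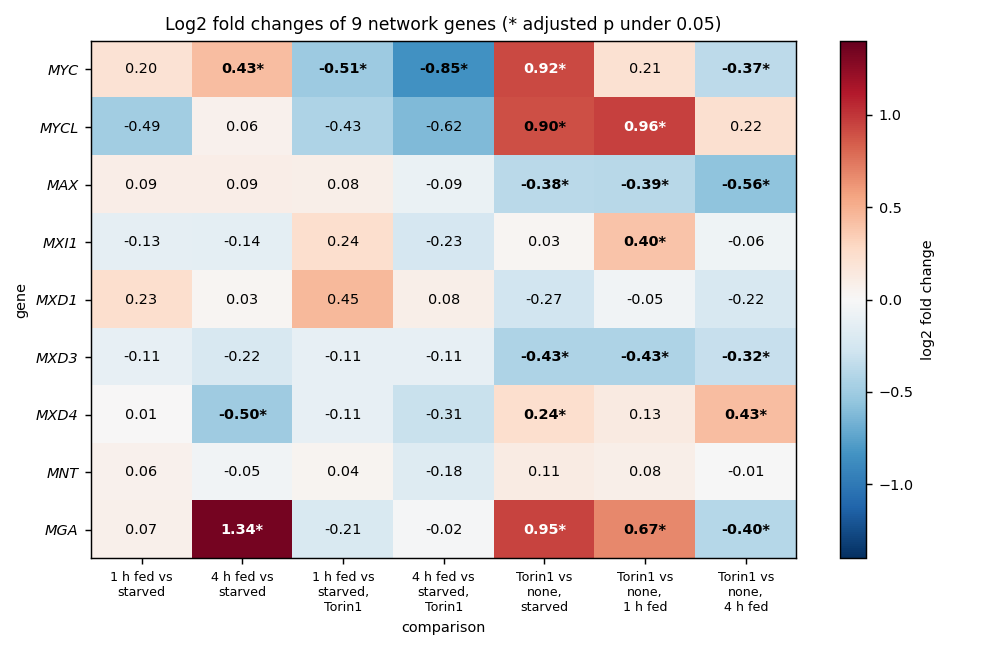
Log2 fold changes (colour and printed value) of 9 network genes (rows) in 7 comparisons (columns); asterisks and bold type mark an adjusted p under 0.05 in edgeR's quasi-likelihood test. MYCN, with 15 counts or fewer per library, is left out. The highest value is 1.34, for MGA after 4 h of feeding without Torin1, and the lowest is -0.85, for MYC after 4 h of feeding with Torin1.

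MXD3, known from mouse cells to be expressed during S phase, was lower with Torin1 as a gene but not in all of its isoforms. As a gene it had 52.6, 58.4 and 53.3 CPM with Torin1 in starved cells, against 73.1, 73.9 and 74 CPM without, and 45.8, 52.1 and 54.6 CPM in 4 h fed cells with Torin1, against 67.8, 62.2 and 59.7 CPM. All 9 libraries with Torin1 lay below all 9 without. The log2 fold changes were -0.43 in starved cells, -0.43 at 1 h and -0.32 at 4 h (SE 0.10 each; adjusted p = 0.000302, 0.000306 and 0.00695). The 4 h call was lost with total counts (-0.15, adjusted p = 0.186) and without 4 h fed Torin1 replicate 1 (-0.25, adjusted p = 0.0528). With 4 h of feeding without Torin1, MXD3 was at -0.22 (adjusted p = 0.068), called without 1 h fed replicate 1 (-0.23, adjusted p = 0.0471), without 4 h fed replicate 1 (-0.27, adjusted p = 0.0494) with the DESeq2 Wald test (-0.27, adjusted p = 0.0241), with DESeq2 size factors (-0.27, adjusted p = 0.0293), with total counts (-0.24, adjusted p = 0.0453) and with a minimum count of 30 (-0.24, adjusted p = 0.0443). From the isoforms that share no exon base with another gene, described next, it was at -0.11 (adjusted p = 0.675).

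The main isoform, MXD3-202, shares 1158 of its 2269 exon bases with the exons of PRELID1, a mitochondrial lipid transfer protein, on the opposite strand. MXD3-202 averaged 27.7 ± 1.88 CPM with Torin1 in starved cells, against 61.8 ± 2.58 CPM without (SD, n = 3 each). PRELID1 itself averaged 224 ± 23.8 CPM with Torin1 in starved cells, against 552 ± 32.8 CPM without (log2 fold change -1.30, adjusted p = 6.57e-14), and fell by 1.14 and 1.19 on the log2 scale with Torin1 at 1 h and 4 h of feeding. Without strand information, reads of MXD3-202 and of PRELID1 cannot be told apart in the shared exon bases. The 5 MXD3 isoforms that share no exon base with another gene together had 19.4, 26.2 and 24 CPM with Torin1 in starved cells, against 12, 8.94 and 10 CPM without, and the groups did not overlap. Counted from these 5 isoforms alone, an alternative chosen after seeing the data, MXD3 was higher with Torin1 by 1.17 on the log2 scale in starved cells, 0.86 at 1 h and 1.30 at 4 h (adjusted p = 7.14e-07, 7.79e-05 and 2e-07). The direction of MXD3 under Torin1 thus depends on which isoforms are counted. The counts of the 5 are estimates as well, and how reads were split between them and MXD3-202 was not tested.

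One of the 5, MXD3-208, was nearly absent without Torin1 by its estimated counts. It had 109, 67 and 52 counts with Torin1 in starved cells, against 2, 0 and 11 counts without, and 120, 133 and 160 counts in 4 h fed cells with Torin1, against 0, 12 and 14 counts without. Over all feeding states it had 43 to 160 counts in the 9 libraries with Torin1 and 0 to 14 in the 9 without. Its share of MXD3 counts was 10.7% ± 3.22 with Torin1 in starved cells, against 0.543% ± 0.722 without, and 19.8% ± 1.36 with Torin1 in 4 h fed cells, against 1.35% ± 1.18 without (SD, n = 3 each). Relative to the other MXD3 isoforms its log2 fold change was 2.96 in starved cells and 2.73 in 4 h fed cells (edgeR diffSpliceDGE, adjusted p = 0.0105 and 0.0241). Isoform counts are estimates, and the uncertainty of assigning reads to isoforms is not in the test.

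Of the 9 network genes whose isoform use could be tested, MYCN being too low, MXD3 alone was called with Torin1, in starved cells (Simes adjusted p = 0.0144), where 5.23% of 10700 genes were called, and in 4 h fed cells (adjusted p = 0.031), where 3.55% were. No network gene was called for 4 h feeding, where 1.34% of genes were. The count became 0 in starved cells without starved replicate 1 or 2 or starved Torin1 replicate 1, and 0 in 4 h fed cells without 4 h fed replicate 1 or 3 or any 4 h fed Torin1 replicate; without starved Torin1 replicate 3 the count in starved cells was 2, and a test at the level of the gene called 3. MXD3-208 starts 859 bases upstream of MXD3-202. The RefSeq promoter of MXD3 (GRCh38.p14, chr5:177312703-177313002, minus strand) is at this upstream start and is shown for that reason; it holds neither motif, so no letters are in capitals.
MXD3: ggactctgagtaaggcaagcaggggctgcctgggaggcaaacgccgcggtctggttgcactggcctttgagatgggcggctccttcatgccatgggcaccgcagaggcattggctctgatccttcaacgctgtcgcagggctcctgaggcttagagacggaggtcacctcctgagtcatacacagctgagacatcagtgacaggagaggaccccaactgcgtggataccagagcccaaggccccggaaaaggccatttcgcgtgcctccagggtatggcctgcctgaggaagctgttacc
The start of MXD3-202 lies outside this window.

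**Figure D3:**
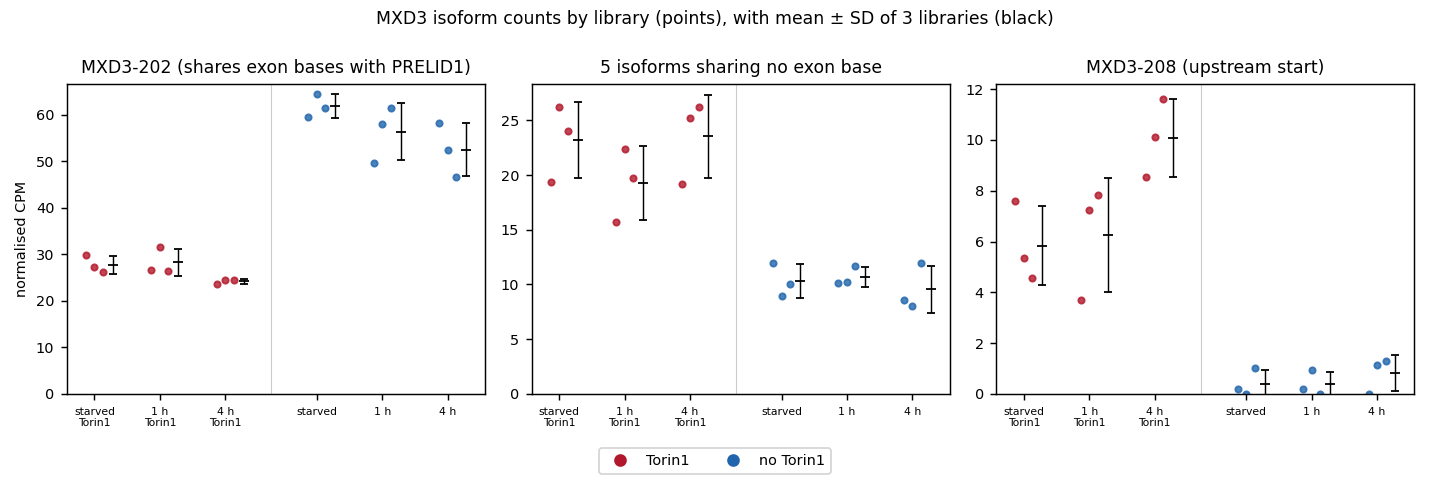
MXD3 isoform levels in normalised CPM (y axes from 0) in each library (points; black marks are means and SD of 3 libraries) for MXD3-202, for the 5 isoforms that share no exon base with another gene, and for MXD3-208, one of those 5. MXD3-202 is lower in the libraries with Torin1 (left of each panel) and both other panels are higher there, with no overlap.

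To compare levels between genes, CPM were divided by the count-weighted mean length of each gene's isoforms. On this scale MYC was the most abundant network mRNA in every group, at 112 ± 8.67 CPM per kb in starved cells with Torin1 and 59.6 ± 7.96 CPM per kb in starved cells without. MAX came next at 48.2 ± 1.6 CPM per kb in starved cells without Torin1, ahead of MXD4 at 37 ± 3.97 and MXD3 at 36.7 ± 0.262 CPM per kb, which lay within their spread of each other. In starved cells with Torin1, MXD4 at 43.8 ± 2.77 CPM per kb stood above MAX at 36.9 ± 0.686 CPM per kb. In starved cells without Torin1, MXI1 (15.3 CPM per kb), MNT (8.01), MXD1 (3.22), MYCL (2.52), MGA (2.28) and MYCN (0.302) followed, with MYCL within its spread of both MXD1 and MGA. In 4 h fed cells MGA reached 5.77 ± 0.644 CPM per kb and stood above MXD1 at 3.28 ± 0.131 CPM per kb.

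The summed level of the MYC family was 3.18 ± 0.231 times that of MAX in starved cells with Torin1, and 1.30 ± 0.215 times in starved cells without. With Torin1 this ratio was lower after feeding, at 2.12 ± 0.246 after 1 h and 1.89 ± 0.0723 after 4 h. Without Torin1 it was 1.37 ± 0.228 after 1 h and 1.64 ± 0.19 after 4 h. The summed level of the 6 antagonists (MXI1, MXD1, MXD3, MXD4, MNT and MGA) per MYC family was 0.876 ± 0.073 in starved cells with Torin1 and 1.67 ± 0.288 in starved cells without, and 1.36 ± 0.122 in 4 h fed cells with Torin1 and 1.06 ± 0.102 in 4 h fed cells without (SD, n = 3 each). In starved cells the antagonists summed to 102 ± 1.12 CPM per kb with Torin1 and 102 ± 2.72 without. The MYC family summed to 117 ± 9.35 and 62.4 ± 8.45 there. In 4 h fed cells the antagonists were at 88.7 ± 1.55 with Torin1 and 88.3 ± 2.95 without, and the MYC family at 65.5 ± 5.13 and 83.3 ± 6.43. The antagonist ratio thus differed with Torin1 through the MYC family. These sums are mRNA only, were not tested, and hold MXD3 counted from all of its isoforms.

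**Figure D4:**
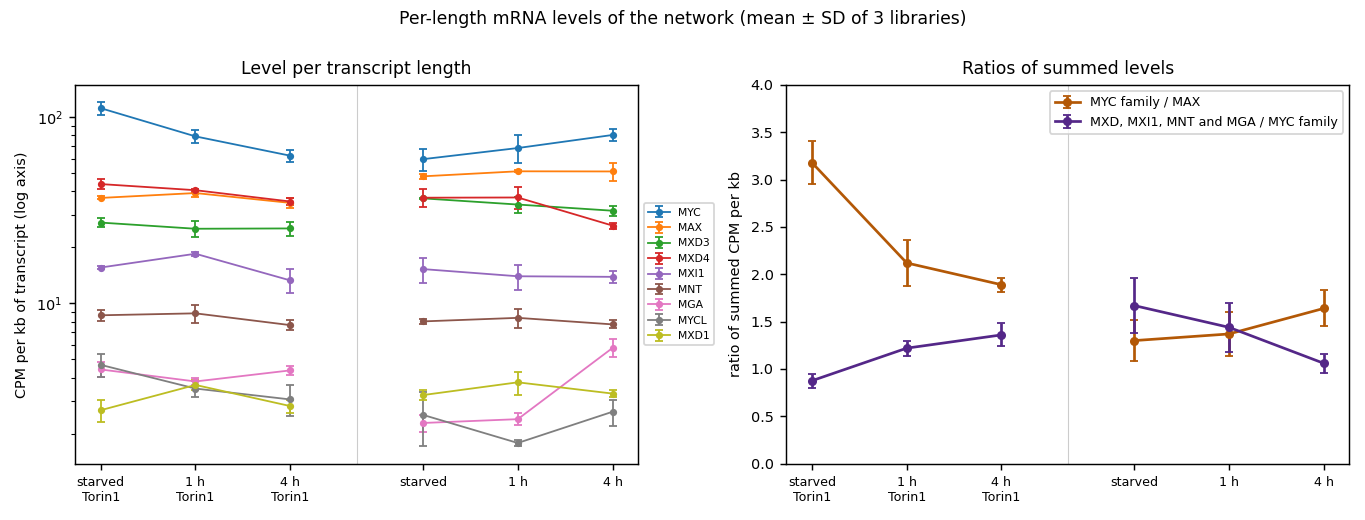
Left, mean level per kb of transcript (log axis; bars are SD of 3 libraries) of 9 network genes over feeding, with Torin1 in the left portion of each panel and without in the right portion. Right, the ratio of the summed MYC family to MAX and of the 6 antagonists to the MYC family (axis from 0); the first is highest, at 3.18, in starved cells with Torin1, where the second is lowest, at 0.876.

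Counted over the network, with Torin1 4 genes were higher and 2 lower in starved cells, where 63.5% of all genes were called (33.9% higher, 29.6% lower). In 1 h fed cells 3 were higher and 2 lower with Torin1 (63.1% of all genes called, 33.2% higher and 29.9% lower), and in 4 h fed cells 1 was higher and 4 lower (56% called, 27.4% higher and 28.6% lower). Without Torin1, 4 h of feeding raised MYC and MGA and lowered MXD4 (42.3% of all genes called, 23.2% higher and 19.1% lower). At 4 h against 1 h MGA was higher and MXD4 lower (39.8% called, 21.7% higher and 18.1% lower). After 1 h of feeding 0 were called (0.646% of all genes, 0.481% higher and 0.164% lower), also by DESeq2, with 1 at an unadjusted p under 0.05 in edgeR. MXD3, whose isoform counts are estimates, is among the lower genes in all 3 Torin1 comparisons. Counted instead from its isoforms that share no exon base with another gene, which made it higher with Torin1 (1.17, 0.86 and 1.30 on the log2 scale), 5 genes were higher and 1 lower in starved cells, 4 higher and 1 lower in 1 h fed cells and 2 higher and 3 lower in 4 h fed cells.

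Under Torin1, where feeding called few genes of the whole table, MYC was lower at 1 h (0.402% of all genes called, 0.274% higher and 0.128% lower) and at 4 h (1.8% called, 0.829% higher and 0.975% lower), and MXI1 was lower at 4 h than at 1 h (1.47% called, 0.573% higher and 0.896% lower). The difference of the feeding effects with and without Torin1 was called in edgeR for 0 of the 10 at 1 h (0.067% of all genes, 0.0122% higher and 0.0548% lower), with 2 at an unadjusted p under 0.05 and 1, MYC, by DESeq2. At 4 h it was called for MYC and MGA, both negative (25.8% of all genes, 9.74% positive and 16% negative).

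Among the 18 genes listed as regulators of MYC transcription or MYC mRNA, changes were mixed. With Torin1 in starved cells 5 were higher and 5 lower (33.9% and 29.6% of all genes), with a median log2 fold change of -0.03 against 0.09 over all genes. CTNNB1, the coactivator beta-catenin, was 2.07-fold higher there (433 ± 4.82 CPM with Torin1 and 210 ± 24.3 CPM without; adjusted p = 4.84e-13). ELAVL1, an RNA-binding protein, was 0.64 of its level without Torin1 (139 ± 9.18 CPM with Torin1 and 218 ± 2.41 CPM without; adjusted p = 1.57e-08). With 4 h of feeding without Torin1, 7 were higher and 1, TCF7L2, was lower (23.2% and 19.1% of all genes). Under Torin1 1 was higher (0.829% of all genes), CNBP (log2 fold change 0.39, adjusted p = 0.00779).

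Of 20 genes for turnover of MYC protein, 7 were higher and 8 lower with Torin1 in starved cells, with a median of -0.03 against 0.09 over all genes, of which 33.9% were higher and 29.6% lower. SKP2, a ubiquitin ligase subunit that targets MYC, averaged 104 ± 0.499 CPM with Torin1 in starved cells and 44.1 ± 2.54 CPM without (log2 fold change 1.24, adjusted p = 4.04e-14). USP36, a nucleolar deubiquitinase of MYC, averaged 78.9 ± 6.63 CPM with Torin1 and 194 ± 7.16 CPM without (-1.30, adjusted p = 3.49e-14). With Torin1 in 4 h fed cells 0 were higher and 8 lower (27.4% and 28.6% of all genes), with a median of -0.18 against 0.02 over all genes. Feeding for 4 h without Torin1 raised 9 and lowered 6 (23.2% and 19.1% of all genes), among them USP7, a deubiquitinase (1.38, adjusted p = 2.8e-14), and USP36 (-0.60, adjusted p = 4.79e-07).

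Of 15 coactivators of MYC, 10 were higher and 0 lower with 4 h of feeding without Torin1, with a median of 0.44 against 0 over all genes, and 23.2% of all genes were higher. TRRAP, the scaffold through which MYC binds histone acetyltransferases, had 131 ± 9.6 CPM after 4 h and 71 ± 2.14 CPM in starved cells (0.88, adjusted p = 1.34e-09). With Torin1 in 4 h fed cells 1 was higher and 9 were lower (27.4% and 28.6% of all genes), with a median of -0.54 against 0.02. HCFC1, a MYC-binding cofactor, had 259 ± 7.01 CPM with Torin1 and 673 ± 41.7 CPM without (-1.37, adjusted p = 2.34e-14).

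Of 13 SIN3 corepressor genes, which serve MXD proteins and MNT, 1 was higher and 10 were lower with Torin1 in starved cells, with a median of -0.42 against 0.09 over all genes, and 29.6% of all genes were lower. SAP30, a SIN3 subunit, averaged 11.9 ± 0.448 CPM with Torin1 and 53.1 ± 2.09 CPM without (-2.16, adjusted p = 2.35e-15), and SIN3B was the gene that was higher (0.38, adjusted p = 0.00123). Of 11 partners of MGA in PRC1.6, 5 were higher and 3 lower with Torin1 in starved cells (33.9% and 29.6% of all genes). TFDP2 was at 1.09 (adjusted p = 7.13e-12) and PCGF6, the subunit that defines the complex, at -0.83 (adjusted p = 2.15e-08). After 4 h of feeding without Torin1, 5 were higher and 1 lower (23.2% and 19.1% of all genes). RNF2, the ubiquitin ligase of the complex, rose by 1.15 (adjusted p = 2.76e-10), as MGA did, and PCGF6 fell by 0.65 (adjusted p = 4.26e-06). In the MLX branch, which parallels the MYC network and shares MNT, MXD1 and MXD4 with it, MLX itself averaged 69.2 ± 0.925 CPM with Torin1 in starved cells and 160 ± 4.23 CPM without (-1.21, adjusted p = 9.93e-14), and MLXIPL, the carbohydrate-responsive partner, was 3.69-fold higher (adjusted p = 1.96e-08).

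With Torin1 in starved cells, where MYC was 1.89-fold higher, 8 of 66 genes known to be activated by MYC were higher and 48 lower. Their median was -0.70 against 0.09 over all genes, of which 33.9% were higher and 29.6% lower. HK2, hexokinase of glycolysis, had 44.6 ± 4.57 CPM with Torin1 and 227 ± 19.6 CPM without (-2.35, adjusted p = 2.11e-18), and CDC25A, a cell cycle phosphatase, fell by 1.43 (adjusted p = 5.01e-15). PES1, of ribosome assembly, and MCM5, of DNA replication, were among the 8 that were higher (1.24, adjusted p = 1.78e-10, and 0.92, adjusted p = 1.66e-11). In 4 h fed cells, where MYC was lower with Torin1, 3 of the 66 were higher and 57 lower (27.4% and 28.6% of all genes). The median was -0.97 against 0.02.

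With 4 h of feeding without Torin1, 28 of the 66 were higher and 12 lower (23.2% and 19.1% of all genes), with a median of 0.18 against 0. MRTO4, a ribosome assembly factor, had 146 ± 7.13 CPM after 4 h and 48.2 ± 4.88 CPM in starved cells (3.04-fold, adjusted p = 1.99e-15). PPRC1, a coactivator of mitochondrial genes, was 2.89-fold higher (adjusted p = 3.51e-15), and TFRC, the transferrin receptor, was 0.38 of its starved level (adjusted p = 2.6e-08). Under Torin1, where 4 h of feeding lowered MYC to 0.554 of its level, 0 were higher and 2 lower (0.829% and 0.975% of all genes). These were TFRC (-1.31, adjusted p = 5.28e-06) and CCND2 (-0.96, adjusted p = 3.11e-07), and the median of the 66 was -0.05 against 0 over all genes. Of 14 genes known to be repressed by MYC, 5 were higher and 7 lower with Torin1 in starved cells, with a median of -0.43 against 0.09 over all genes, of which 33.9% were higher and 29.6% lower. After 4 h of feeding without Torin1, 3 were higher and 4 lower, with a median of 0.01 against 0 over all genes, of which 23.2% were higher and 19.1% lower. CDKN1C, a cell cycle inhibitor, had 3.42 ± 0.299 CPM after 4 h of feeding and 15.6 ± 4.21 CPM in starved cells (-2.18, adjusted p = 3.38e-08). CEBPA, among the 3 that were higher, had 32.9 ± 4.62 CPM after 4 h and 12.8 ± 1.27 CPM in starved cells (1.36, adjusted p = 3.56e-07).

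The genes whose log2 CPM most resembled MYC over the 18 libraries, of 11695 compared, were LRP8 (Pearson r = 0.805), IL27RA (0.793), COLEC12 (0.773), TNFRSF1A (0.760) and FBXL19 (0.750). For MGA, chosen after its values were seen, they were RTL10 (0.964), ASF1A (0.963), UBE2D4 (0.962), HELZ (0.961) and SEC22A (0.961). For MYCN, the gene with the widest range of group means, the closest was YIF1B at 0.753, over counts too low to read. These values describe the same 18 libraries, which share 6 groups and their depth.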

How the data were processed

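RNA of 18 HEK-293E libraries was sequenced. Per the labels' protocols, STAR was run in 2 passes, and they name a C. elegans build although the identifiers are human; RSEM and DESeq2 appear in the submitters' processing notes, and the human build and strand setting were not given in the sources used here. The authors deposited expected counts per gene (3.32% not whole, tolerance 1e-06) and estimated counts per isoform, not normalised. Counts were rounded, filtered with filterByExpr (minimum count 10, 16414 genes), TMM scaled and fitted as 6 group means with edgeR 4.0.16 in R 4.3.3 (12 residual degrees of freedom). Isoform use was tested with diffSpliceDGE on 48663 isoforms of 10700 genes, with isoform names from GENCODE release 29. Both tests were tried on simulated counts, which for isoforms held no error of assigning reads. The 3-count limit for a count of 0 is 0.219 to 0.285 CPM, for counting error only. SEs are log2 fold changes over the root of F.

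The network genes and gene lists were chosen with earlier results of these data known. Among those results was the opposite movement of MYC with 4 h of feeding without and with Torin1. All network genes were named; from each list, up to 2 called genes per direction and comparison with the smallest p and at least 5 CPM were eligible. For MYC and the other gene with the widest range, 5 similar genes were taken. Correlations of deviations between libraries of different groups were -0.11 to 0.16 (median 0.04) for the same replicate number. For other numbers they were -0.11 to 0.11 (median -0.02). The main fit had no block by number. Such a block raised the genes called in every comparison, from 66 to 110 for 1 h feeding under Torin1, so weak pairing may be present. Alternatives were DESeq2 1.42.0 size factors and Wald test, total counts, limma-voom (limma 3.58.1), no filter, a minimum count of 30, only the groups compared, replicate block and leaving out each library.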

Additional observations from a re-analysis of the deposited data

Results flagged for a closer look

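The 4 h feeding effect differed with Torin1, by a called interaction term in edgeR, for MYC (-1.29) and MGA (-1.35) on the log2 scale. Each value is the feeding effect with Torin1 minus that without. MYC fell with feeding under Torin1 and rose without it, and MGA rose without it. The movement of MYC was known when the network was chosen.

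Of the lists, up to 2 genes in each direction are named, those with the smallest p among genes averaging at least 5 CPM. The same difference was called as positive and negative for 1 and 1 of 3 genes of the MLX branch, 2 and 8 of 20 for turnover of MYC protein, 0 and 8 of 15 coactivators, and 5 and 2 of 13 SIN3 genes. For PRC1.6 the counts were 1 and 4 of 11, for the MYC regulators 0 and 4 of 18, for genes activated by MYC 2 and 23 of 66, and for genes repressed by MYC 3 and 3 of 14. Those named are MLX (1.02) and MLXIP (-0.55) of the MLX branch. For turnover of MYC protein they are USP36 (0.61), AXIN1 (0.38), USP7 (-1.46) and SKP2 (-1.10), and for the coactivators TRRAP (-1.07) and WDR5 (-0.86). The next are the SIN3 genes ARID4A (1.10), SAP130 (0.88), BRMS1 (-0.80) and SUDS3 (-0.45) and the PRC1.6 genes PCGF6 (0.64), CBX1 (-0.88) and RNF2 (-1.03), with CTNNB1 (-1) and PUF60 (-1.03) of the MYC regulators. Among genes activated by MYC they are HK2 (0.41), TMEM97 (0.38), PPRC1 (-1.73) and MRTO4 (-1.65), and among genes repressed by MYC GADD45A (2.15), CDKN1C (1.86), CEBPA (-1.36) and CCND1 (-0.81). Over all tested genes the difference was called for 25.8%, positive for 9.74% and negative for 16%.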

How the results depend on the processing

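The MYC changes at 4 h of feeding kept direction and call under every alternative run. The fall under Torin1 ranged from -0.91 to -0.79, the rise without Torin1 from 0.32 to 0.50 and their difference from -1.35 to -1.18. Over 110 gene and comparison pairs of the network and 2951 alternative values, 2897 kept the call and its direction or stayed uncalled. Reversed values were those of MXD3 with Torin1 counted from the isoforms that share no exon base (1.17, 0.86 and 1.30). With total counts, 3 network genes were called for Torin1 in 4 h fed cells and 0 for 4 h against 1 h under Torin1; the median of all genes moved by 0.14 (starved), 0.11 (1 h fed) and 0.17 (4 h fed) in the Torin1 comparisons. That scaling made 62.6% of calls higher with Torin1 in 4 h fed cells (49% with TMM), 44.3% for 1 h feeding under Torin1 (68.2%) and 61.2% for 4 h against 1 h under Torin1 (39%).

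The other counts of network genes that moved by over 1.5 times were 2 for 4 h feeding under Torin1 with the DESeq2 Wald test, no filter, the replicate block and only the groups compared; 2 for 4 h against 1 h under Torin1 with no filter and only the groups compared; 1 for the 1 h interaction with the Wald test and no filter; and 3 for isoform use with Torin1 in starved cells at the gene level. Smaller moves were to 4 for 4 h feeding, 7 for Torin1 in starved cells and 6 to 7 for Torin1 in 1 h fed cells. The replicate block gave no other change in the network's counts of calls. Leaving out each library gave 0 to 1 for 1 h feeding under Torin1, for 4 h against 1 h under Torin1, for the 1 h interaction and for isoform use in 4 h fed cells, 1 to 2 for 4 h feeding under Torin1 0 to 2 for isoform use in starved cells, 3 to 4 for 4 h feeding, 2 to 3 for 4 h against 1 h and for the 4 h interaction, 5 to 6 for Torin1 in starved and in 1 h fed cells, and 4 to 5 for Torin1 in 4 h fed cells. Counts over all genes moved most where few were called: 106 for 1 h feeding (39 to 248 over alternatives), 66 for 1 h under Torin1 (22 to 208), 296 for 4 h under Torin1 (134 to 640), 241 for 4 h against 1 h under Torin1 (99 to 725) and 11 for the 1 h interaction (3 to 77). The cause was not tested. Depth limits MYCN, at 15 counts or fewer.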
